A study of Mus musculus with 36 samples.

Results

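Retinoid (vitamin A) handling was described in mouse liver RNA through 9 genes: Rbp4, Ttr, Lrat, Rdh7, Rdh10, Dhrs3, Aldh1a1, Cyp26a1 and Rarb. They were taken by symbol as the genes for retinol binding, esterification and oxidation and for retinoic acid targets, and make up 9 of the 53715 gene identifiers in the count table. Of the 9, 8 passed the filter on low counts and could be tested, and Lrat was listed at 0 in every library. The livers came from 36 male C57BL/6 mice, an inbred strain with no transgene named, at 10 weeks of age. From 4 weeks of age the mice had eaten 1 of 3 diets for 6 weeks: AIN93G, a purified rodent diet that served as control, AIN93G with 10% (w/w) powder of red tomato, or AIN93G with 10% (w/w) powder of tangerine tomato. Red tomatoes are rich in all-trans lycopene, and tangerine tomatoes in lycopene and precursors that carry cis double bonds. Lycopene is not a precursor of vitamin A, unlike the beta-carotene that tomatoes also hold, and AIN93G itself supplies vitamin A as retinyl palmitate. The diets were matched in macronutrients. Each diet had 12 libraries, while the labels put as few as 11 mice in a diet. No mouse number occurred in more than 1 diet, so the libraries were taken as separate mice. The gap between both numbers could not be settled from the labels. The tests set diet differences against the spread between libraries, each taken as 1 mouse.

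Liver is the main store of vitamin A. Hepatocytes take up dietary retinyl esters, hydrolyse them and release retinol to the blood on retinol binding protein 4, while hepatic stellate cells hold most of the store as retinyl esters in lipid droplets, made by lecithin retinol acyltransferase. Inside cells retinol is reversibly oxidised to retinal, and retinal irreversibly to retinoic acid, the ligand of the nuclear receptors RARA, RARB and RARG. Retinoic acid raises transcription of Cyp26a1, which breaks it down, of Dhrs3, which turns retinal back to retinol, and of Rarb itself.

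Total counts per library ranged from 21290169 to 33810573, so the least abundant of the 8 genes, Rarb, still had 44 to 187 counts per library. Abundances below are CPM, in which counts are divided by the scaled library size. Hepatocyte markers (Alb, Apoa1, Serpina1a, Apob and Fgb) summed to 83908 CPM or more in every library, and all 9 of the 9 stellate cell markers other than Lrat had counts. Some libraries stood apart by markers of other tissues or cells. Adipose markers reached 223 counts in the library of red mouse 186 against 12 or fewer in every other library, and the same library had 2126 counts of T and B cell markers. Pancreatic acinar markers reached 321 counts in tangerine mouse 216 against 10 or fewer elsewhere, and kidney markers reached 550 counts in tangerine mouse 198, with 282 in the next library. In control mouse 137 the sinusoidal endothelial markers summed to 70.5 CPM, with 197 CPM in the next lowest control, and the Kupffer cell markers to 66.7 CPM, with 105 CPM in the next lowest. In whole liver, fewer cells of a type and less RNA per cell cannot be told apart.

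Sequences are shown for the pair of retinoic acid target genes in which a direct repeat of receptor half-sites was found just before the start. The 3 windows of Dhrs3, also a target, held none. Promoter windows of 250 bases before to 50 bases after a start were taken from RefSeq (GRCm38.p6). Of the 9 genes, 7 had a window, with 12 windows in all, and Rdh10 and Ttr had none. Both strands were searched for 2 half-sites in the same direction, each AGGTCA or AGTTCA, with 1, 2 or 5 bases of any kind between them. Only the Cyp26a1 window held such a repeat, with 5 bases between the half-sites, on the strand opposite to the gene. A repeat with that spacer was present in 13 of 32851 RefSeq windows (0.0396%), and one with any of the 3 spacers in 0.161%. The half-site GGTTCA was added after the sequences had been seen, and the Rarb window then held a repeat with 5 bases between the half-sites, on the gene's own strand. With the added half-site, 20 of 32851 windows (0.0609%) held a repeat with that spacer, and 0.371% held one with any of the 3 spacers. The stretch of Cyp26a1 is the 100 bases before its GENCODE start on the plus strand (chr19:37697698-37697797, GRCm38.p6), and that of Rarb is 30 bases on the minus strand (chr14:16575506-16575535, GRCm38.p6). Capitals mark the repeat with its spacer, 17 bases from 37697776 to 37697792 on chromosome 19 and from 16575513 to 16575529 on chromosome 14.
Cyp26a1: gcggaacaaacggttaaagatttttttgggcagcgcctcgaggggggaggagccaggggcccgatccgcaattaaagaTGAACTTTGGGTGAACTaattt
Rarb: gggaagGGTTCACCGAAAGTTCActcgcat
Counted from the RefSeq start of its window (37697808, which lies 10 bases after the GENCODE start), the repeat of Cyp26a1 lay 32 to 16 bases before the start. In Rarb it lay 53 to 37 bases before the RefSeq start of that window, which lies inside the gene's span. A match is a description of these letters, and binding was not measured.

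None of the 8 tested genes passed an adjusted p of 0.05 in any of the 4 comparisons. Calls came from the quasi-likelihood F test of edgeR over 14068 genes, with Benjamini-Hochberg adjustment. Red against control had 0 of 8 members called, with 0.149% of all tested genes called in that comparison. Tangerine against control had 0 of 8 called, with 0.0142% of all genes called. Tangerine against red had 0 of 8 called, with 1.71% of all genes called. Both tomato diets against control had 0 of 8 called, with 0.00711% of all genes called. At an unadjusted p under 0.05 the counts were 1 of 8 for red against control (Dhrs3), 0 for tangerine against control, 1 for tangerine against red (Rbp4) and 0 for both tomato diets against control. Over all genes tested, 13.3%, 5.47%, 15.1% and 6.77% were under that unadjusted p in the same 4 comparisons. The DESeq2 test also called 0 of 8 in each comparison, with 1, 0, 1 and 0 members at an unadjusted p under 0.05. In absolute terms the members' log2 fold changes had a median of 0.10 for red against control, of 0.07 for tangerine against control and of 0.05 for tangerine against red, beside 0.09, 0.07 and 0.09 over all genes tested. Both comparisons with control use the same 12 control livers, and their values are given side by side only.

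**Figure D1:**
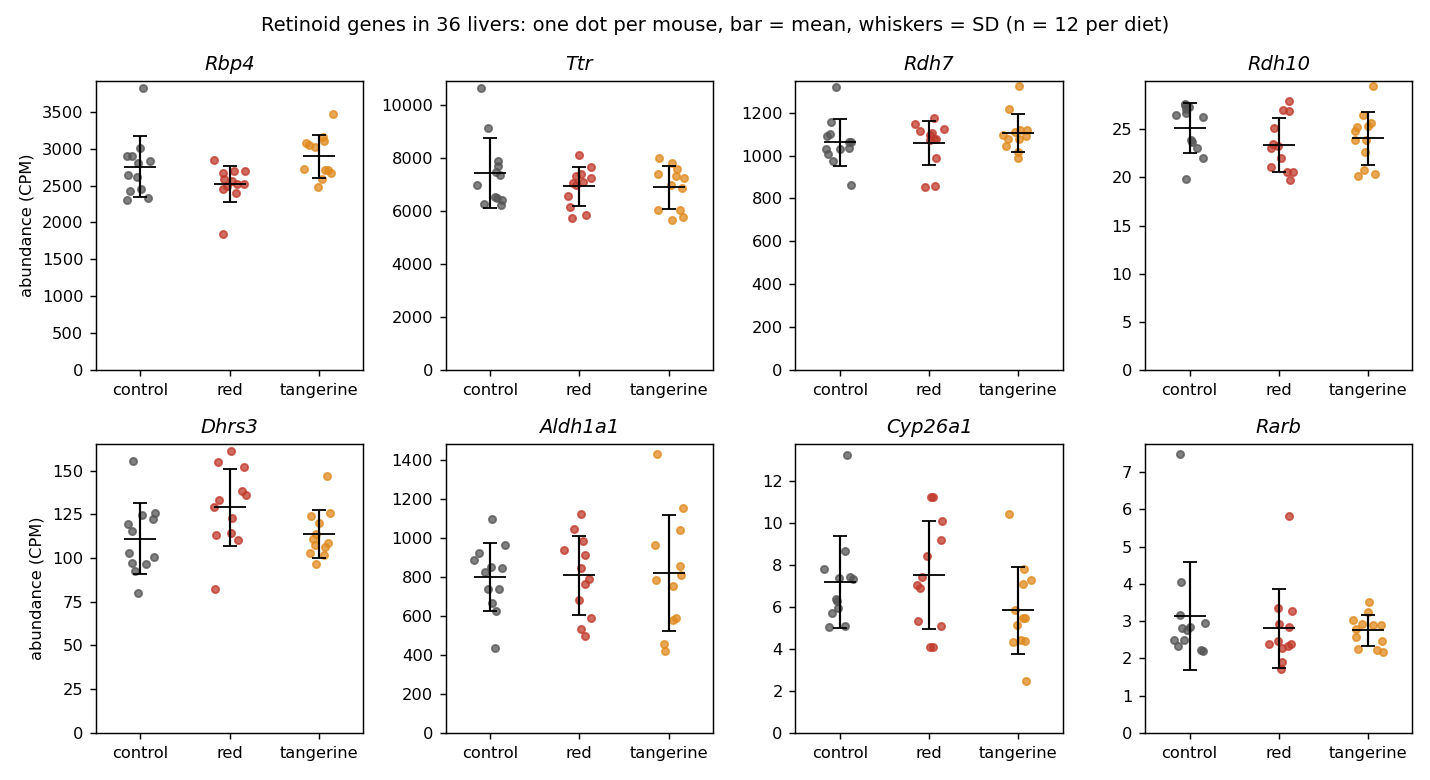
Abundance in CPM of the 8 counted retinoid genes, 1 dot per mouse, by diet, with the mean (bar) and SD (whiskers) of 12 livers per diet and every axis starting at 0. The diets overlap for every gene, and single livers lie far from the rest for Rbp4 and Ttr (control 137, 3817 and 10636 CPM) and Rarb (control 245, 7.48 CPM).

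Binding and transport. Rbp4 (ENSMUSG00000024990.12, chr19:38116629-38125281, minus strand, GRCm38) encodes the plasma carrier on which hepatocytes secrete retinol. Its abundance was 2299, 2718 and 3817 CPM (lowest, median and highest) on control, 1851, 2541 and 2849 CPM on red, and 2479, 2875 and 3464 CPM on tangerine. The highest liver was control 137, and the lowest was red 186. Red livers were on the low side, with 1 of 12 above the control median, and tangerine livers were on the high side, with 11 of 12 above the red median and 6 of 12 above every red liver, although the groups overlapped. The mean was 2752 ± 412 CPM (SD, n = 12) in control livers, 2524 ± 246 in red and 2896 ± 291 in tangerine livers. Tangerine against red gave a log2 fold change of 0.20 ± 0.07 (SE), or 1.15-fold, with an unadjusted p of 0.00787 and an edgeR adjusted p of 0.148. Without red 186, the lowest liver, it was 0.16 (edgeR adjusted p = 0.224). Across 15 other settings that log2 fold change ranged from 0.09 to 0.20. It passed the threshold in 1 of them, with surrogate variables as covariates, where it was 0.11 with an adjusted p of 0.0479 and 5.82% of all genes were called. The clock score described below, used as covariate, gave 0.09 with an edgeR adjusted p of 0.682, where 0% of all genes were called. Red against control gave -0.12 ± 0.07 (edgeR adjusted p = 0.457), and tangerine against control 0.07 ± 0.07 (edgeR adjusted p = 0.9999).

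Ttr (ENSMUSG00000061808.3, chr18:20665280-20674321, plus strand) encodes transthyretin, the carrier of thyroid hormone to which retinol-loaded RBP4 binds in plasma. Its abundance was 6232, 7158 and 10636 CPM (lowest, median and highest) on control, 5736, 7053 and 8098 CPM on red, and 5669, 7105 and 7974 CPM on tangerine. The medians lay close together, and the highest value was again that of control 137, with the next control liver at 9115 CPM. In red against control the log2 fold change was -0.10 ± 0.08 (edgeR adjusted p = 0.618), and in tangerine against control it was -0.11 ± 0.08 (edgeR adjusted p = 0.995). The 95% intervals of these differences ran from -16.6% to 4.32% and from -17.0% to 3.87%.

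Storage. Lrat (ENSMUSG00000028003.6, chr3:82892579-82903973, minus strand), which encodes the acyltransferase that esterifies retinol in stellate cells, was listed at 0 in all 36 libraries. That value was not read as a level. The gene lies wholly inside the span of the antisense gene Rbm46os, with which it shares no exon. The part of this overlap in the value was not tested. Of 1274 protein-coding genes that lie wholly inside another gene in GENCODE release M21, 1247 (97.9%) were listed at 0 in every library, against 3150 of 20616 other protein-coding genes (15.3%). The gene of the MHC class I light chain, B2m, was among those listed at 0. How the authors counted reads of overlapping genes is not given in the sources used here. The other stellate cell markers summed to 297 to 424 CPM on control, 305 to 391 CPM on red and 292 to 442 CPM on tangerine.

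Retinol oxidation. Rdh7 (ENSMUSG00000040134.8, chr10:127884028-127888817, minus strand) encodes a short-chain dehydrogenase of liver that acts on retinols and steroids. Its abundance was 865, 1049 and 1317 CPM (lowest, median and highest) on control, 855, 1088 and 1174 CPM on red, and 991, 1094 and 1324 CPM on tangerine. It varied least of the 8 genes, with a coefficient of variation of 9.32% over the 36 livers, and the diets overlapped almost fully. In red against control the log2 fold change was -0.01 ± 0.06, in tangerine against control 0.06 ± 0.06 and in tangerine against red 0.07 ± 0.06. Its 95% interval for red against control ran from -8.24% to 8.20% (edgeR adjusted p = 0.984). Rdh7 shares 75.1% to 77.0% of aligned transcript bases with Rdh1, Rdh9, Rdh16 and Rdh19, with identical runs of up to 133 bases, and reads from such runs could be assigned to either gene.

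Rdh10 (ENSMUSG00000025921.7, chr1:16105774-16133734, plus strand) encodes the retinol dehydrogenase that is required for retinoic acid synthesis in the embryo. Its abundance was 19.9, 26.4 and 27.6 CPM (lowest, median and highest) on control, 19.8, 23.1 and 28.0 CPM on red, and 20.1, 24.3 and 29.5 CPM on tangerine. Only 3 of 12 red and 2 of 12 tangerine livers lay above the control median, and the groups overlapped. In red against control the log2 fold change was -0.10 ± 0.07 (edgeR adjusted p = 0.522), and in tangerine against control it was -0.06 ± 0.07 (edgeR adjusted p = 0.9999). With limma-voom sample weights red against control was -0.19 with an adjusted p of 0.0350, a setting in which 10.7% of all genes were called.

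Retinal reduction. Dhrs3 (ENSMUSG00000066026.14, chr4:144892827-144928209, plus strand) encodes the retinal reductase that returns retinal to retinol and is itself a retinoic acid target. Its abundance was 80.1, 109 and 155 CPM (lowest, median and highest) on control, 82.3, 131 and 161 CPM on red, and 96.7, 110 and 147 CPM on tangerine. Red livers were the highest as a group, with 11 of 12 above the control median, but just 1 of them lay above every control liver. The mean was 111 ± 20.1 CPM (SD, n = 12) in control livers, 129 ± 22.2 in red and 114 ± 13.6 in tangerine livers. Red against control gave a log2 fold change of 0.22 ± 0.09, or 1.16-fold with a 95% interval from 2.03% to 32.1% higher, an unadjusted p of 0.0247 and an edgeR adjusted p of 0.299. Tangerine against red was -0.18 ± 0.09 (edgeR adjusted p = 0.342), and tangerine against control 0.03 ± 0.09 (edgeR adjusted p = 0.9999). Without control 137, the highest control liver, red against control was 0.27 (edgeR adjusted p = 0.146). It reached an adjusted p of 0.0179 with limma-voom sample weights, at a log2 fold change of 0.30.

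The diets also differed in a clock score, the first principal component of 10 tested clock genes, which held 72.3% of their variance and is high where Dbp is high. It ran from -4.57 to 3.31 on control with a median of 1.65, from -5.04 to 0.88 on red with a median of -2.79, and from -0.91 to 4.40 on tangerine with a median of 1.52. With this score as covariate the log2 fold change of Dhrs3 was 0.07 for red against control (edgeR adjusted p = 0.836) and 0.01 for tangerine against red (edgeR adjusted p = 0.974). Of all genes, 0.0284% and 0% were called in these comparisons with the score, against 0.149% and 1.71% without it. Within diets, Dhrs3 had a Pearson r of -0.46 with the score (Spearman rho -0.45, n = 36, permutation p = 0.00733, adjusted over 8 genes 0.0586), and -0.43 without the 2 livers farthest from the median score. The score was past the adjusted threshold with 0 of the 8 genes, and Rbp4 (r = 0.35, permutation p = 0.0497, adjusted 0.199) was the other one under an unadjusted 0.05. The part of the clock in the values of Dhrs3 and Rbp4 was not tested.

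Retinal oxidation. Aldh1a1 (ENSMUSG00000053279.7, chr19:20492715-20643465, plus strand) encodes the cytosolic retinal dehydrogenase, which makes retinoic acid. Its abundance was 434, 838 and 1098 CPM (lowest, median and highest) on control, 499, 817 and 1125 CPM on red, and 423, 797 and 1434 CPM on tangerine. The range within each diet was far wider than the differences between diets, and both the lowest and the highest value of the 36 livers occurred on tangerine. In red against control the log2 fold change was 0.02 ± 0.16 and in tangerine against control 0.04 ± 0.16 (edgeR adjusted p = 0.983 and 0.9999), and the intervals of the differences ran from -19.8% to 27.4% and from -18.6% to 29.2%. Without control 245 both log2 fold changes turned to the other sign (-0.04 and -0.02, edgeR adjusted p = 0.926 and 0.998). Aldh1a1 and its neighbour Aldh1a7 share 89.0% of aligned transcript bases, with identical runs of up to 100 bases, and how reads shared by both were counted is not given in the sources used here.

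Retinoic acid breakdown and receptor. Cyp26a1 (ENSMUSG00000024987.5, chr19:37697798-37701536, plus strand) encodes the cytochrome P450 that hydroxylates retinoic acid, and is the gene of the sequence shown above with a repeat of the listed half-sites. Its abundance was 5.02, 6.83 and 13.2 CPM (lowest, median and highest) on control, 4.09, 7.21 and 11.2 CPM on red, and 2.45, 5.46 and 10.4 CPM on tangerine. Tangerine livers were on the low side, with 4 of 12 below every control liver and 3 of 12 above the red median, and the groups overlapped. The mean was 7.17 ± 2.20 CPM (SD, n = 12) in control livers, 7.50 ± 2.56 in red and 5.84 ± 2.07 in tangerine livers. Tangerine against red gave a log2 fold change of -0.36 ± 0.19 (unadjusted p = 0.0596, edgeR adjusted p = 0.351), with a 95% interval from -40.3% to 1.08%. The clock score as covariate gave -0.06 (edgeR adjusted p = 0.935), in a setting where 0% of all genes were called. The part of the clock in this difference was not tested. Tangerine against control was -0.30 ± 0.19 (edgeR adjusted p = 0.959), and red against control 0.07 ± 0.19 (edgeR adjusted p = 0.911).

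Rarb (ENSMUSG00000017491.9, chr14:16430839-16819156, minus strand) encodes the retinoic acid receptor that is itself induced by retinoic acid, and is the gene of the sequence found with the added half-site. Its abundance was 2.20, 2.78 and 7.48 CPM (lowest, median and highest) on control, 1.71, 2.43 and 5.81 CPM on red, and 2.16, 2.84 and 3.52 CPM on tangerine. Control 245 and red 177 stood far above the rest, with the next highest livers of their diets at 4.05 and 3.36 CPM, and the other livers of the 3 diets overlapped. In red against control the log2 fold change was -0.16 ± 0.17 (edgeR adjusted p = 0.719), and in tangerine against control it was -0.19 ± 0.17 (edgeR adjusted p = 0.9999). Without control 245 these values were 0.03 and -0.0041 (edgeR adjusted p = 0.949 and 0.998). Without both livers, a choice made after seeing the data, they were -0.12 and -0.0042 (edgeR adjusted p = 0.670 and 0.998). Of its 5265 exon bases, 3245 lie outside other genes, since Top2b overlaps its 3′ end and Gm48162 lies antisense to it.

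**Figure D2:**
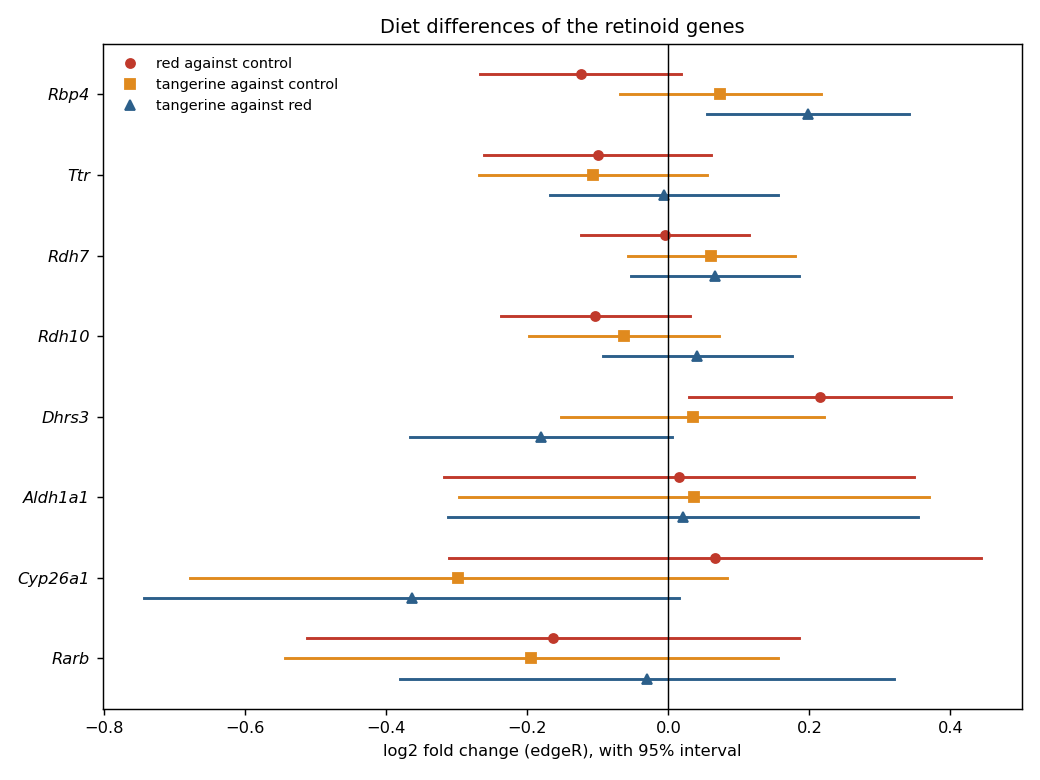
Log2 fold changes from edgeR (points) with 95% intervals (lines) of the 8 tested genes for red against control, tangerine against control and tangerine against red. Only Dhrs3 in red against control (0.22) and Rbp4 in tangerine against red (0.20) have intervals that leave out 0, and neither passed the adjusted threshold.

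Per kilobase of exon that no other gene shares, the mean levels over the 36 livers followed the order Ttr, Rbp4, Rdh7, Aldh1a1, Dhrs3, Rdh10, Cyp26a1 and Rarb. Ttr had 5964 ± 834 CPM per kb (SD, n = 36) and Rbp4 2028 ± 261, the plasma carriers at the top. The enzymes spread over a wide range, with 641 ± 59.7 CPM per kb for Rdh7, 185 ± 51.1 for Aldh1a1, 40.3 ± 6.87 for Dhrs3, 5.81 ± 0.65 for Rdh10 and 3.45 ± 1.18 for Cyp26a1. Rarb was at 0.89 ± 0.32 CPM per kb. Rdh10 and Cyp26a1 overlapped over the livers, as did Cyp26a1 and Rarb, while no other neighbours in this order overlapped. The coefficient of variation of CPM over the 36 livers was 36.3% for Rarb, 34.2% for Cyp26a1 and 27.7% for Aldh1a1, and 9.32% to 17.1% for the other 5 genes. For Rarb it was 18.1% without control 245 and red 177, where Cyp26a1 had 34.6% and Aldh1a1 26.9%.

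**Figure D3:**
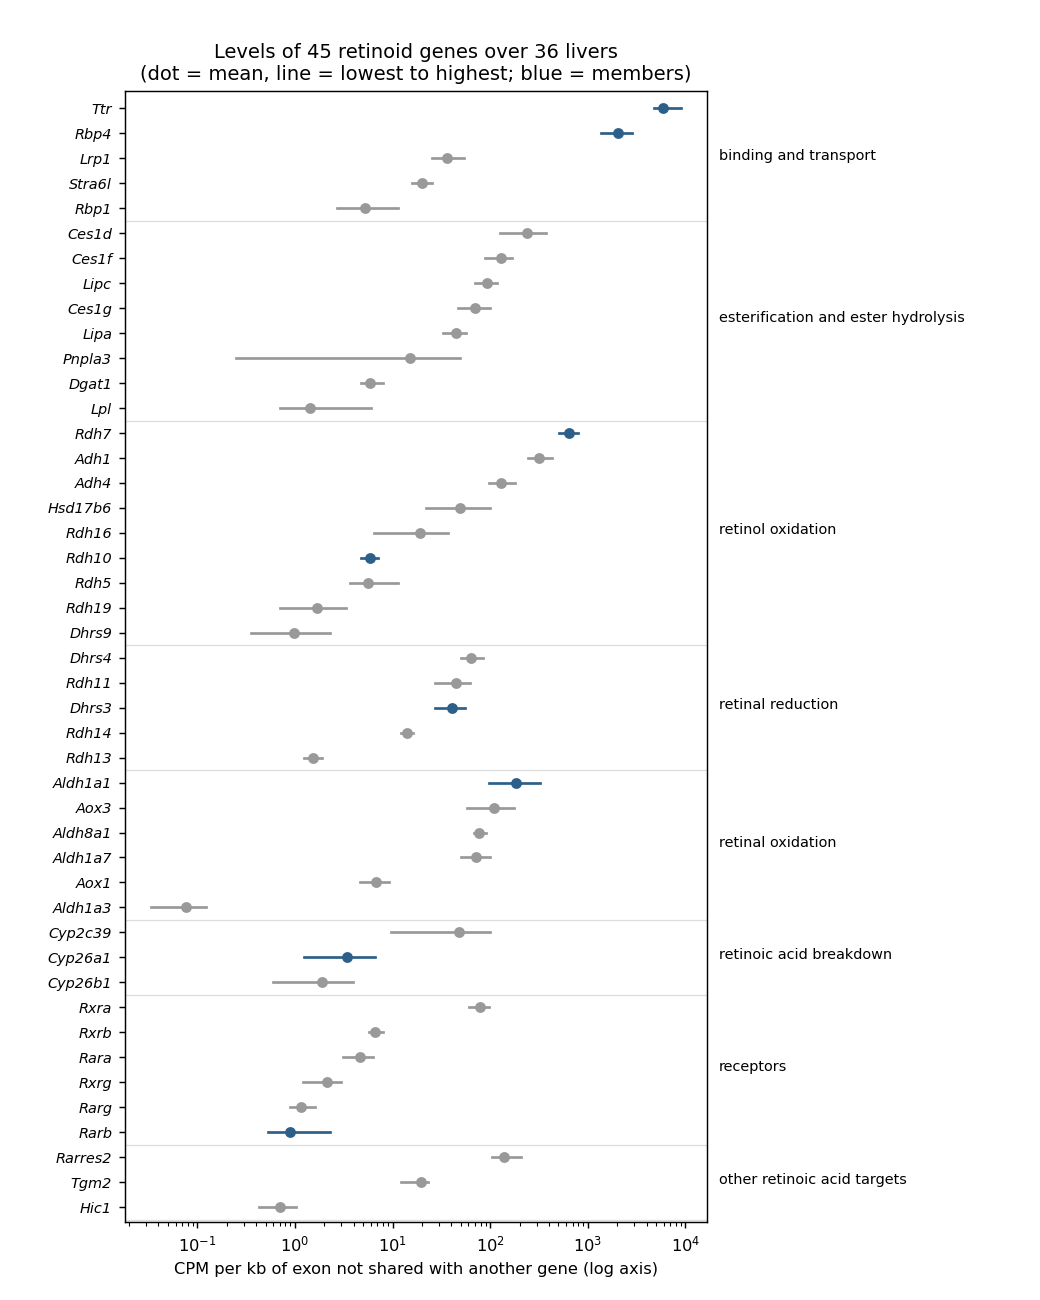
Levels in CPM per kilobase of unshared exon (log axis) of 45 tested retinoid genes over 36 livers, with the mean (dot) and the lowest to highest liver (line), grouped by role, the 8 counted members in blue and the other 37 genes in grey. The carriers Ttr (5964) and Rbp4 (2028) lie at the top and the receptor Rarb (0.89) near the bottom.

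Of 51 further genes listed for the same pathway, 37 were tested. In edgeR 0 of the 37 passed an adjusted p of 0.05 in any of the 4 comparisons, with 9, 2, 7 and 4 of them at an unadjusted p under 0.05. These were 24.3%, 5.41%, 18.9% and 10.8% of the 37, beside 13.3%, 5.47%, 15.1% and 6.77% of all genes tested. DESeq2 called 1 of them in red against control, Aox1, and 0 in the other comparisons. Over the 37 genes the log2 fold changes had a median of 0.01 for red against control, of 0.02 for tangerine against control and of -0.01 for tangerine against red, beside 0.00, -0.01 and 0.00 over all genes tested. In absolute terms the medians of the 37 were 0.11, 0.08 and 0.10, beside 0.09, 0.07 and 0.09 over all genes tested.

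By role, the genes of binding and transport (3 of 8 tested), of ester formation and hydrolysis (8 of 9), of retinol oxidation (7 of 10), of retinal reduction (4 of 5), of retinal oxidation (5 of 6), of retinoic acid breakdown (2 of 3), the receptors (5 of 5) and other targets (3 of 5) each had 0 called. Aox1, an aldehyde oxidase that can oxidise retinal, had the smallest adjusted p of the 37. Its abundance was 40.3, 55.7 and 62.9 CPM (lowest, median and highest) on control, 56.0, 65.6 and 79.4 CPM on red, and 44.2, 54.5 and 79.2 CPM on tangerine. Red livers were the highest as a group and overlapped both others. Red against control gave a log2 fold change of 0.33 ± 0.09 (edgeR adjusted p = 0.0728), and tangerine against red -0.27 ± 0.09 (edgeR adjusted p = 0.0950). In red against control its adjusted p was under 0.05 in the DESeq2 test and with limma-voom weights, surrogate variables or a transcript length covariate. In these settings 1.44%, 10.7%, 2.60% and 1.36% of all genes were called. Aox1 did not pass in the other settings, among them the clock score as covariate, where 0.0284% of all genes were called.

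Other named genes of the list had smaller or less certain differences. For Adh1, the main cytosolic alcohol dehydrogenase of liver, red against control was -0.17 ± 0.08 (edgeR adjusted p = 0.345) and tangerine against red 0.20 ± 0.08 (edgeR adjusted p = 0.187). For Stra6l, which encodes an RBP4 receptor of liver, tangerine against red was -0.19 ± 0.07 (edgeR adjusted p = 0.164). Lipa, the lysosomal acid lipase, had -0.20 ± 0.08 in the same comparison (edgeR adjusted p = 0.218). Dhrs9 had -0.55 ± 0.24 there, and Aldh1a3, with 349 counts over all 36 libraries, 0.47 ± 0.16 (edgeR adjusted p = 0.249 and 0.179). In tangerine against red each of these genes was under an unadjusted 0.05, as were 15.1% of all genes. Of the 4 other tested reductases of retinal, 3 were under an unadjusted 0.05 in red against control, where 13.3% of all genes were. Their log2 fold changes were -0.25 ± 0.12 for Rdh11, -0.15 ± 0.07 for Rdh13 and -0.10 ± 0.04 for Rdh14, with edgeR adjusted p from 0.341 to 0.360, while that of Dhrs3 had the opposite sign. The remaining reductase, Dhrs4, had 0.02 ± 0.07 (edgeR adjusted p = 0.917). Also under an unadjusted 0.05 in red against control were Rxrg (0.29 ± 0.12), Aox3 (0.28 ± 0.13), Tgm2 (0.16 ± 0.07) and Stra6l (0.15 ± 0.07). Their edgeR adjusted p ran from 0.290 to 0.354. In tangerine against control Aldh1a7 (-0.23 ± 0.10) and Hic1 (0.26 ± 0.11) were under it (edgeR adjusted p = 0.811 and 0.822), as were 5.47% of all genes.

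Across livers, pairs of the 8 genes were compared on log2 CPM after removal of the diet means. Of 28 pairs, 6 passed an adjusted p of 0.05 by Pearson's r and 7 by Spearman's rho, in two-sided permutation tests within diets. The share of other gene pairs that would pass was not computed, so these counts have no background beside them. Rbp4 and Rdh7 were the most alike (r = 0.77, rho = 0.71, n = 36, permutation p = 1e-05, the smallest that 100000 permutations can give, adjusted p = 0.00028). Their r was 0.78 within each of the 3 diets, and 0.63 without the 2 livers farthest from the median of Rbp4. Control 137 and tangerine 225 were high in both while red 186 was low in both.

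Aldh1a1 and Rdh10, which encode successive enzymes from retinol to retinoic acid, had r = 0.67 (rho = 0.70, n = 36, permutation p = 4e-05, adjusted p = 0.00056). Both had higher r with genes outside the pathway list, Rdh10 up to 0.91 (Cept1) and Aldh1a1 up to 0.88 (Hadh). Within diets r was 0.54 on control, 0.73 on red and 0.73 on tangerine, and it was 0.65 without the 2 livers farthest from the median of Aldh1a1. Rdh7 and Rarb had r = -0.55 (rho = -0.39, n = 36, permutation p = 0.00235, adjusted p = 0.0132), with an adjusted p of 0.0700 for rho. Without the 2 livers farthest from the median of Rdh7, r was -0.63. Control 245 and red 177 had high Rarb and low Rdh7 (865 and 859 CPM). Without control 245 and red 177, a choice made after seeing the data, r was -0.22 (n = 34, permutation p adjusted 0.389). Within diets r was -0.80 on control, -0.31 on red and -0.53 on tangerine with all livers, and -0.65 on control and 0.33 on red without those 2.

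The other 3 pairs were Dhrs3 and Rdh7 (r = 0.48, rho = 0.47, permutation p = 0.00612, adjusted 0.0286), Dhrs3 and Ttr (r = 0.53, rho = 0.46, permutation p = 0.00151, adjusted 0.0132) and Rdh10 and Ttr (r = -0.50, rho = -0.46, permutation p = 0.00193, adjusted 0.0132), each with n = 36. Without the 2 livers farthest from the median of the first gene, r was 0.37, 0.34 and -0.52. Without control 137 none of the 3 passed the threshold, with r of 0.38, 0.41 and -0.39 (n = 35, permutation p adjusted 0.115, 0.0774 and 0.0815).

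**Figure D4:**
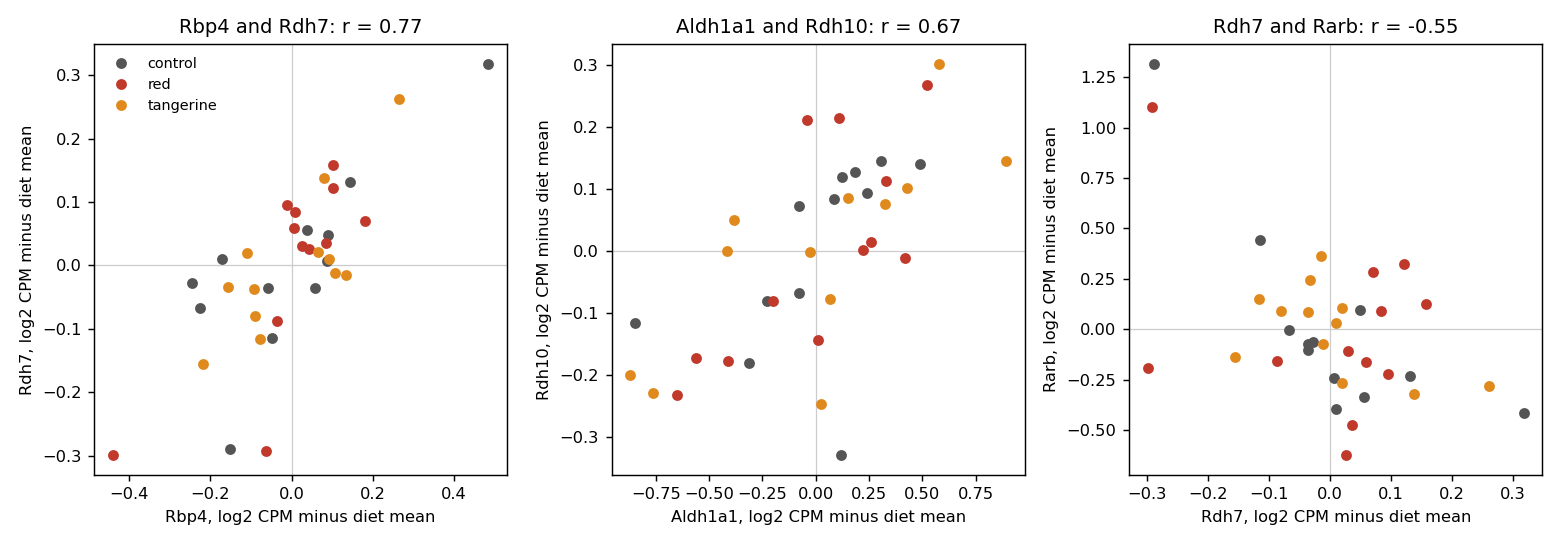
Log2 CPM minus the diet mean for Rbp4 and Rdh7, Aldh1a1 and Rdh10, and Rdh7 and Rarb, 1 dot per liver coloured by diet, with Pearson's r over 36 livers. For Rdh7 and Rarb (r = -0.55) control 245 and red 177 lie at the upper left, and without them r is -0.22.

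The livers differed in how abundance leaned on transcript length. The slope of a library's log2 CPM deviations on log2 exon length ran from -0.131 in control 137 to 0.0567 in red 186. It went with 5 of the 8 genes within diets: Ttr (r = -0.73, rho = -0.62, permutation p = 2e-05, adjusted 0.00016), Dhrs3 (r = -0.59, rho = -0.53, adjusted permutation p = 0.00116), Rbp4 (r = -0.58, rho = -0.40, adjusted permutation p = 0.00314), Rdh10 (r = 0.51, rho = 0.48, adjusted permutation p = 0.00314) and Rdh7 (r = -0.44, rho = -0.31, adjusted permutation p = 0.0180). Without the 2 livers farthest from the median slope these r were -0.63, -0.54, -0.35, 0.32 and -0.29. The slope was fitted over the tested genes, these 8 included, and the share of all genes that go with it was not counted. With the slope removed by regression, r was 0.71 for Rbp4 and Rdh7 (permutation p adjusted 0.00028). It did not pass the threshold for Dhrs3 and Rdh7 (0.30), Dhrs3 and Ttr (0.18) or Rdh10 and Ttr (-0.22). Aldh1a1 and Rdh10 (0.69) and Rdh7 and Rarb (-0.63) still passed (permutation p adjusted 0.00042 and 0.00439). Aldh1a1 then also passed with Rdh7 (0.51) and with Rbp4 (0.46), which it had not before (permutation p adjusted 0.0154 and 0.0407). The part of RNA quality or fragment length in these values was not tested.

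**Figure D5:**
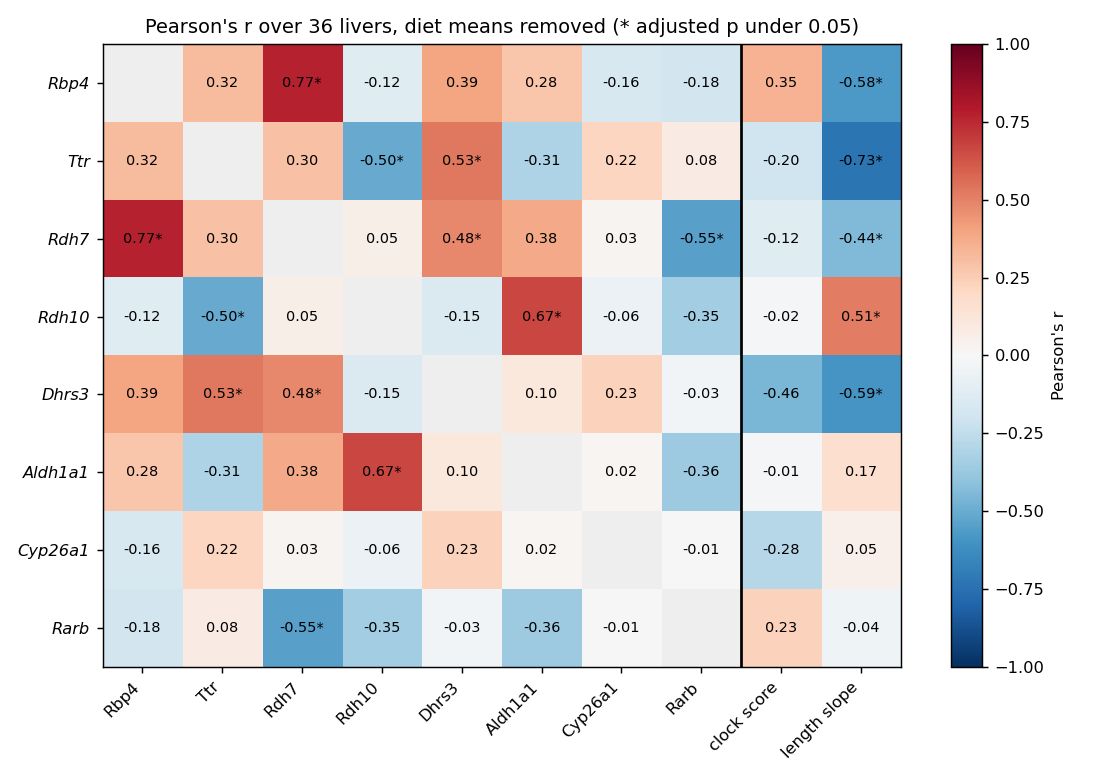
Pearson's r over 36 livers with diet means removed, between the 8 tested genes and with the clock score and the length slope of each library, with a star where the permutation p adjusted over the pairs or over the 8 genes is under 0.05. The strongest values are 0.77 (Rbp4 and Rdh7) and -0.73 (Ttr and the length slope).

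Marker sums of 9 cell types and tissues were compared with the 8 genes in the same way, and 0 of 72 relations passed an adjusted p of 0.05 while 9 were under an unadjusted 0.05. The sinusoidal endothelial sum had 4 of those 9, with r of -0.53 for Rbp4, -0.51 for Dhrs3, -0.48 for Rdh7 and -0.57 for Ttr (n = 36, adjusted permutation p = 0.139, 0.0698, 0.139 and 0.0698). Control 137, the lowest in that sum, was the highest control liver for all 4 genes. Without the 2 livers farthest from the median of the sum, r was 0.08, -0.18, 0.07 and -0.26 for these genes. All 6 of the 6 sinusoidal markers had counts, and their sum ran from 70.5 to 238 CPM on control, from 178 to 237 CPM on red and from 104 to 242 CPM on tangerine. The part of endothelial cell content in the values of the 4 genes was not tested.

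For each gene the 3 genes most alike were taken by Pearson's r over the 36 livers with diet means removed, among the 10969 whose log2 CPM averaged 1 or more. They were Marc2, Hint2 and Msrb1 for Rbp4 (r from 0.84 to 0.85), Smdt1, Ndufa11 and Dpm3 for Ttr (0.83 to 0.85), and C1s1, Txndc15 and Hint2 for Rdh7 (0.82 to 0.87). Hint2 was thus named for both Rbp4 and Rdh7. For Rdh10 they were Cept1, Man1a and Ptp4a2 (0.90 to 0.91), for Aldh1a1 Hadh, Cd1d1 and Gm44992 (0.87 to 0.88), and for Dhrs3 Amdhd1, Magix and St6galnac6 (0.73 to 0.80). Cyp26a1 had the least close ones, Dennd3, Mum1 and Dcp1b (0.59 to 0.60). For Rarb they were Gm5564, Serpina3f and Eif5al3-ps (0.80 to 0.82), which fell to 0.45 to 0.53 without control 245 and red 177.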

How the data were processed

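Liver RNA of 36 mice was sequenced as 1 library per mouse. Libraries were made with a directional kit of PerkinElmer from total RNA that had been extracted with Qiagen kits, per the labels' protocols. The authors deposited raw counts per gene, without normalization, as 1 table for all libraries. GRCm38.p6, FastQC, Trimmomatic and edgeR are named in the submitters' processing notes, while the aligner, the counting program, the strand setting and the treatment of reads shared between genes are not given in the sources used here. Symbols, positions and exon lengths came from GENCODE release M21 (GRCm38) and matched 53620 of 53715 identifiers; the rest held 0.00177% of counts. Each column was assigned through the column name in the sample's label.

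Total counts per library had a median of 25524054 on control, 26856681 on red and 27076348 on tangerine. The defaults of filterByExpr in edgeR 4.0.16 (count of 10, total of 15) left 14068 genes. Libraries were scaled by TMM and all 3 diets were fitted together with glmQLFit (robust) and tested with glmQLFTest, adjusted by Benjamini-Hochberg over all genes of a comparison at 0.05. SEs are the absolute log2 fold change over the root of F. The test was tried on simulated counts. Log2 CPM used a prior count of 2, marker sums 0.1 CPM. Levels per kb use exon bases outside other genes. Relations used 100000 permutations within diets in Python 3.11.15 with numpy 2.4.6, and transcripts were aligned with Biopython 1.88.

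Named were all 9 members and the 3 genes most alike to each member. Further pathway genes were named by role, and with them all those with an unadjusted edgeR p under 0.05 between single diets. Members and lists were chosen with earlier results of these data known, and nothing is supported by that choice. Other settings were DESeq2 1.42.0 (size factors or test), no low-count filter, limma 3.58.1 voom with sample weights, the clock score, 5 of 9 surrogate variables from sva 3.50.0, only the groups compared, and leaving out red 186, tangerine 216 or both. Chosen after seeing the data were leaving out control 137 (alone, or with red 186, tangerine 198 and tangerine 216), leaving out control 245 (alone, or with red 177), the length slope, and the half-site GGTTCA. Protein sequences were not used here.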

Additional observations from a re-analysis of the deposited data

How the results depend on the processing

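No paired analysis was possible because no mouse number occurs in more than 1 diet. Depth was lowest for Rarb, with as few as 44 counts. Of 472 log2 fold changes of the 8 genes under 15 other settings, 426 kept their direction and their side of the threshold, 43 changed sign, all with adjusted p above 0.05, and 3 passed it. The cause of each change was not tested.

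With limma-voom sample weights 2 of the 8 genes were called in red against control (Dhrs3 and Rdh10), and 4 of the whole pathway list with members included (also Aox1 and Rdh11), where 10.7% of all genes were called. In tangerine against red 2 of the list were called (Aldh1a3 and Aox1), with 5.30% of all genes. Surrogate variables gave 1 member in tangerine against red (Rbp4), 5 of the whole list there (also Adh1, Aox1, Aox3 and Lipa; 5.82% of all genes) and 3 in red against control (Aox1, Aox3 and Rdh11; 2.60% of all genes). DESeq2 and the length slope each gave 1 in red against control (Aox1), with 1.44% and 1.36% of all genes called.

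The log2 fold changes that changed sign are these. With limma-voom weights, red against control was -0.13 for Aldh1a1, 0.033 for Rdh7 and 0.0041 for Ttr. Under the same weights tangerine against control was -0.11 for Aldh1a1, tangerine against red 0.061 for Rarb, and both tomato diets against control 0.0053 for Rbp4 and -0.12 for Aldh1a1. With the clock score, red against control was -0.18 for Cyp26a1 and 0.033 for Rarb, tangerine against red 0.013 for Dhrs3 and 0.060 for Ttr, and both diets against control 0.0043 for Rbp4. With surrogate variables, red against control was 0.060 for Rdh7 and -0.13 for Cyp26a1, and tangerine against red -0.072 for Aldh1a1, -0.015 for Rdh7 and 0.22 for Rarb. Both diets against control was 0.032 for Rbp4 there. Without the low-count filter, tangerine against red was 0.00048 for Ttr, and with only the groups compared, red against control was 0.00056 for Rdh7. With the length slope, red against control was -0.010 for Aldh1a1 and 0.013 for Rdh7. Without red 186 and tangerine 216, red against control was -0.013 for Aldh1a1, 0.020 for Rdh7 and -0.0014 for Cyp26a1. Without these and control 137 and tangerine 198, it was -0.0080 for Aldh1a1, 0.049 for Rdh7 and -0.017 for Cyp26a1, and both diets against control was 0.043 for Rbp4. Without control 245 and red 177, Aldh1a1 against control was -0.060 on red, -0.022 on tangerine and -0.041 on both diets, and Rarb was 0.11 in tangerine against red.

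Without red 186, tangerine 216, control 137 or control 245 in turn, red against control ran from -0.043 to 0.024 for Aldh1a1, from -0.029 to 0.027 for Rdh7, from -0.0014 to 0.066 for Cyp26a1 and from -0.20 to 0.026 for Rarb. Tangerine against control then ran from -0.022 to 0.045 for Aldh1a1. Both diets against control ran from -0.040 to 0.026 for Rbp4, from -0.033 to 0.034 for Aldh1a1 and from -0.22 to 0.011 for Rarb. Of the relations between genes, 4 to 7 passed the threshold under 7 other settings.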
